A study of Mus musculus with 12 samples.

Results

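Livers of mice with 1 intact copy of Sirt1 (Het, SIRT1+/-) were compared with those of wild-type mice (WT, SIRT1+/+), all kept on a high-fat diet for 34 weeks. The comparison takes the arrays labelled Het_HF 1 to 3 against those labelled WT_HF 1 to 3, 6 of the 12 arrays of the series. The other 6 arrays hold Het and WT livers on a low-fat diet, 3 of each, and are used where a genotype difference on the high-fat diet is set beside that on the low-fat diet. All mice were male and of strain C57BL/6, and the labels call the 3 animals of a group biological replicates, with 1 array per animal. The labels give neither the age of the mice nor the part of Sirt1 that the Het allele lacks. The labels name no promoter or Cre, so the lower dose is described only as a genotype of the whole animal.

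Sirt1 encodes a protein deacetylase that uses NAD and acts on histones and on transcription regulators, among them PGC-1alpha, FOXO1, NF-kB and LXR. In the liver it is known for links to fatty acid oxidation, gluconeogenesis, cholesterol and bile acid metabolism and inflammation. The male mouse liver is also known for a set of sex-biased genes that follow the pulses of growth hormone through the transcription factor STAT5B. The series asks how Sirt1 dose bears on metabolic disease brought on by diet, and the comparison here asks what a lower dose goes with in the liver under that diet.

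RNA was labelled with Cy3 and hybridised to 1-colour arrays of 60-base probes, on which the brightness of a probe reports the abundance of a transcript. Levels are log2 signals relative to the 75th percentile of the array, so that a level of 0 is a gene at that percentile and a difference of 1 is a factor of 2. On the 6 high-fat arrays between 60.4% and 68.4% of spots were flagged as well above background. The 75th percentile of an array was 975.1 to 1688.5 intensity units. WT replicates 1 and 2 lay on 1 slide and WT replicate 3 on another with all 3 Het replicates, so that only WT replicate 3 can be set against Het within a slide. All 6 were scanned on the same day. The first principal component of the high-fat arrays held 37.5% of the variance and placed WT replicate 2 apart (score -50.2), with the other WT replicates at -7.5 and -2.4 and the Het replicates at 36.9, 22.3 and 0.9. The number of arrays limits the precision, since 3 were measured per group. In whole liver, fewer cells of a type and less RNA per cell cannot be told apart.

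Sirt1 itself was measured by a pair of probes. The first 30 bases of each are shown, since the genotype labels are checked on these sequences. In mouse build mm7, which the array design uses, the brighter probe lies at chr10:62855795-62855854 and the dimmer probe at chr10:62838289-62838348, both read on the minus strand.
Brighter probe: actaatggctttcattcctgtgaaagtgat
Dimmer probe: aaactagggatcaattttctcaactgcaga
On the brighter probe the WT levels were -0.37, -0.26 and -0.17 and the Het levels -0.72, -0.67 and -0.73. On the dimmer probe they were -1.14, -0.81 and -0.92 in WT and -1.66, -1.59 and -1.69 in Het. On both probes every Het array lay below every WT array. The Het minus WT difference was -0.44 ± 0.13 (SE of the limma fit, n = 3 per group) on the brighter probe and -0.69 ± 0.13 on the dimmer probe, which puts Het at 73.6% and 62.1% of the WT level. That SE, as every ± below, rests on a spread pooled over the 4 groups and moderated across genes. The low-fat arrays therefore enter it. In limma, adjusted over all probes, the adjusted p was 0.427 for the brighter and 0.333 for the dimmer probe, so neither passed the threshold of 0.05. The exact two-sided permutation test gave p = 0.1 for each probe, the smallest value that 3 arrays against 3 allow. Against WT replicate 3 alone, on the shared slide, the differences were -0.54 and -0.72. Both probes were also lower in Het on the low-fat diet, by -0.43 ± 0.13 and -0.60 ± 0.13. Whether either probe lies in the deleted part of the gene is not given.

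**Figure D1:**
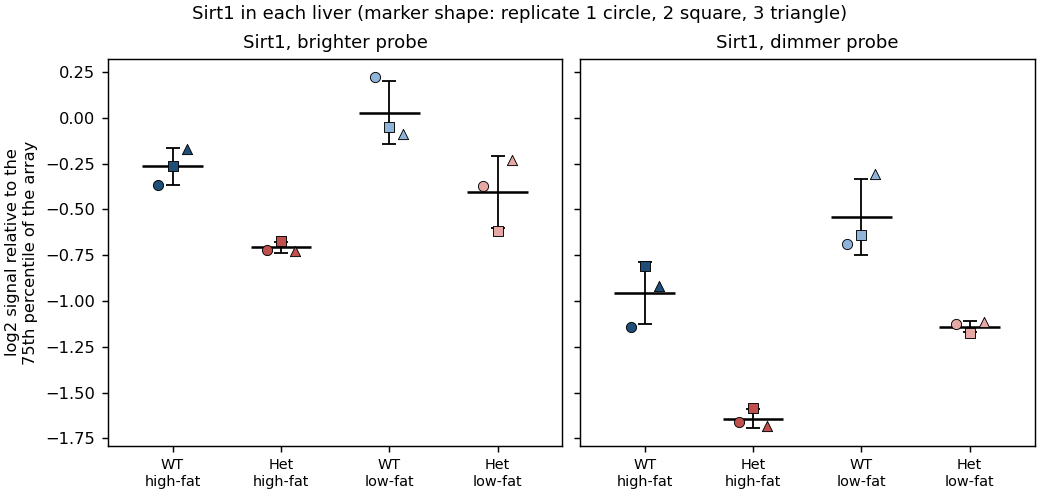
Log2 level of Sirt1, relative to the 75th percentile of the array, on the brighter (left) and dimmer (right) probe in each of the 12 livers, by genotype and diet. Horizontal lines are group means and bars 1 SD (n = 3). On both probes the 3 Het high-fat arrays, from -0.73 to -0.67 and from -1.69 to -1.59, lie below the 3 WT high-fat arrays.

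Over the whole liver transcriptome, limma with Benjamini-Hochberg adjustment called no gene between Het and WT on the high-fat diet: 0 of 17043 genes tested (0%) passed, and the lowest adjusted p was 0.345. At an unadjusted p under 0.05 there were 1475 genes (8.65%), and 857 without WT replicate 2. Of the 1475, 927 were higher in Het (5.44%) and 548 lower (3.22%). The 3 Het arrays all lay above the 3 WT arrays for 1560 genes (9.15%) and all below for 987 genes (5.79%), together 14.9% of those tested. Differences of at least 2-fold were seen for 290 genes upward (1.7%) and 99 downward (0.581%). Those larger differences ran mostly upward, and none of them passed the test. These counts were not repeated under other scalings. Several of the upward genes named below had WT signals near the background, where a log2 difference is inflated or uncertain. The median difference of all genes was 0.03, and 54.9% of genes were higher in Het. This split moved with the scaling of the arrays. After quantile normalization it was 50.2%. When arrays were scaled to their median it was 35.4%, since that moves the median of all genes by -0.11. Among genes with an unadjusted p under 0.05 the share higher in Het was 62.8%. It was 30.3% when arrays were scaled to their median, 48.7% after quantile normalization and 41.5% once the trends of each array on GC content and brightness were removed. Directions of small differences are therefore read against the median of all genes.

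With no gene past the threshold, 10 genes per direction are named here as not passing. They have the lowest p among genes with a current symbol and groups that do not overlap, with adjusted p from 0.345 to 0.359 in limma. Their non-overlap is part of the choice.

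**Figure D2:**
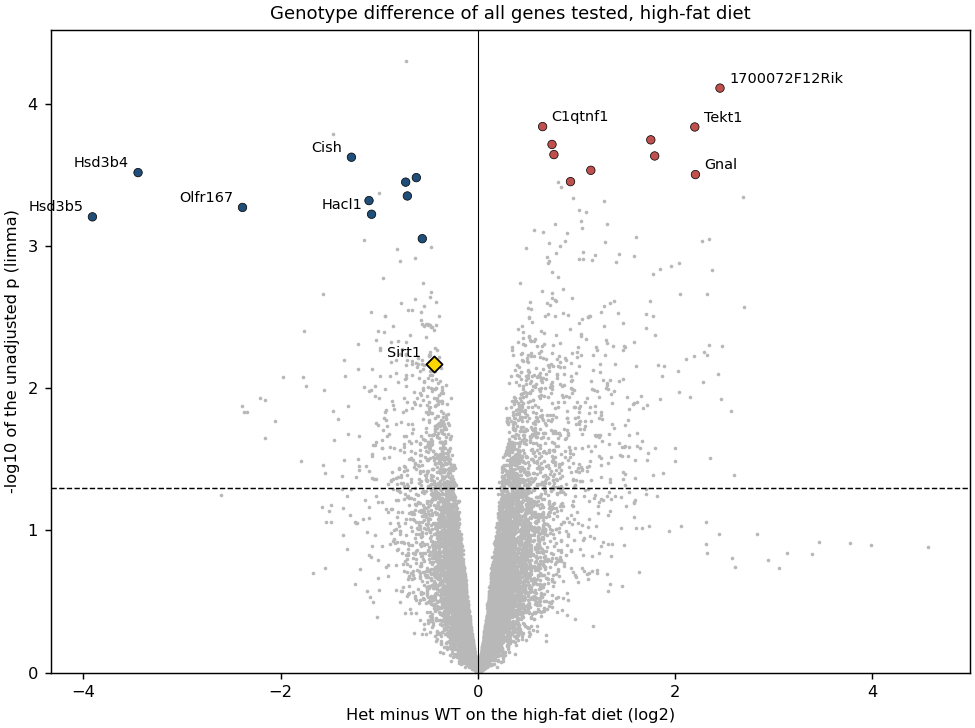
Het minus WT difference on the high-fat diet (log2, horizontal) against the -log10 of the unadjusted limma p (vertical) for the 17043 genes tested. Coloured points are the 20 named genes (red higher, blue lower in Het) and the gold diamond is the brighter Sirt1 probe, and the dashed line marks an unadjusted p of 0.05. Hsd3b4 and Hsd3b5 lie farthest to the left among the named genes, at -3.45 and -3.91, and none of the points passes after adjustment.

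Among the genes higher in Het, C1qtnf1, which encodes a secreted protein of the C1q and TNF related family, had the closest replicates. Its WT levels were -2.61, -2.64 and -2.65 and its Het levels -1.80, -2.004 and -2.13, a difference of 0.66 ± 0.11 (SE). The 3 WT values were nearly the same, and every Het value lay well above them. C1qtnf1 was also higher in all 3 Het arrays on the low-fat diet, by 0.31 ± 0.11. Pkp3, a plakophilin of desmosomes, stood at -1.89, -1.89 and -2.15 in WT and at -1.005, -1.27 and -1.34 in Het, a difference of 0.77 ± 0.14. Slamf7, a receptor of NK and plasma cells, differed by 1.15 ± 0.22, Scx, the transcription factor scleraxis of tendon and matrix-producing cells, by 0.94 ± 0.18, and Akap6, an anchor of protein kinase A, by 0.75 ± 0.14. All 3 were dim genes, with WT levels between -5.42 and -4.53, and with normexp background correction their differences were 0.48, 0.52 and 0.34.

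Several of the larger differences were in genes near the background. Cxcr2, the chemokine receptor that guides neutrophils, was well above background on 1 of 3 WT arrays and on 3 of 3 Het arrays. Its levels were -5.91, -6.33 and -4.89 in WT and -3.71, -3.90 and -4.26 in Het. The fitted difference of 1.75 ± 0.31 sets Het against 2 WT signals that were not well above background, and it was 0.74 with normexp background correction. Ppp1r1a, an inhibitor of protein phosphatase 1, was also well above background on 1 of 3 WT arrays, and its fitted difference was 1.79 ± 0.33, or 0.74 with normexp. The transcript 1700072F12Rik, the ciliary gene Tekt1 and the G protein gene Gnal were well above background on 0 of 3 WT arrays and 3 of 3 Het arrays. These 3, and Cxcr2, passed the filter only through the Het high-fat arrays, so that this contrast is in part the filter's own. The same may hold for genes below with 0 of 3 arrays above background in a group. For 1700072F12Rik, Tekt1 and Gnal only a bound can be given, at least 1.42-fold, 1.26-fold and 2.29-fold higher in Het. The adjusted p of 0.345 for each in limma comes from the signals as read and not from the bound. The bound replaces each WT signal by the lowest one on that array that was well above background, unless the probe itself was brighter.

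Genes lower in Het included a pair of steroid dehydrogenases with the largest differences among those named. Hsd3b4 and Hsd3b5 encode members of the 3-beta-hydroxysteroid dehydrogenase family, of which Hsd3b5 is known as a male-specific gene of the mouse liver. As the members of this family are alike in sequence, the first 30 bases of the probes are shown. The Hsd3b5 probe lies at chr3:98414360-98414419 in mm7, and that of Hsd3b4 on a contig that this build did not place on a chromosome.
Hsd3b4: cttgtaggttagaatttcatcagggcttcc
Hsd3b5: ccctgggtgttatcaggtcctccagagagg
The longest run of bases that both 60-base probes share was 6. This sets the probes against each other and not against the transcripts of the family, so it does not show that they read separate genes. Hsd3b4 stood at 1.54, 0.11 and 1.75 in WT and at -3.54, -2.73 and -0.67 in Het, a difference of -3.45 ± 0.66. Hsd3b5 stood at 1.87, 0.19 and 2.16 in WT and at -4.18, -2.80 and -0.53 in Het, a difference of -3.91 ± 0.82. Both genes spread widely in both groups: WT replicate 2 was the lowest WT array and Het replicate 3 the highest Het array on each. Both probes ranked the high-fat arrays in the same order. On the low-fat diet Hsd3b5 was brighter in every liver, at 4.35, 5.39 and 3.99 in WT and 4.31, 3.45 and 4.60 in Het, and its genotype difference there was -0.46 ± 0.82. For the other members measured the groups overlapped. Hsd3b3 differed by -0.31 ± 0.28, Hsd3b6 by -0.10 ± 0.23, Hsd3b1 by -0.25 ± 0.27 and Hsd3b7, an enzyme of bile acid synthesis, by -0.15 ± 0.21. The brightest Hsd3b2 probe read -7.69 on WT replicate 2 against 1.93 to 2.91 on the other high-fat arrays, while the other pair of Hsd3b2 probes differed by -0.10 ± 0.23 and 0.02 ± 0.30. The single-gene signal of this family is uncertain where probes cross-hybridise.

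Cish, which encodes a suppressor of cytokine signalling that STAT5 induces and that feeds back on growth hormone and prolactin receptors, stood at 1.54, 1.04 and 1.04 in WT and at -0.03, -0.32 and 0.12 in Het. Every Het array lay below every WT array by more than the spread within either group, and the mean difference was -1.28 ± 0.24, with Het at 41.1% of WT. On the low-fat diet Cish ran the other way, at 2.13, 2.29 and 2.42 in WT and at 2.33, 2.995 and 3.30 in Het (0.59 ± 0.24). The difference between the diets in this genotype effect was -1.87 ± 0.34, with an unadjusted p of 0.000183 and an adjusted p of 0.944 in limma. Against WT replicate 3 alone the high-fat difference was -1.12. The start of Cish in RefSeq on GRCm38.p6 holds 2 copies of TTCNNNGAA, the palindromic form that STAT factors bind, in chr9:107296654-107296683 on the plus strand. The stretch is shown with both copies in capitals, and 5 of its 30 bases lie before the annotated start.
Cish: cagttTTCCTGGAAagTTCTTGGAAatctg
The motif reads the same on both strands. In the windows of 300 bases around gene starts, 250 before and 50 after, it was present in 8.3% of 32851 windows, and 2 or more copies were present in 0.457%. The windows of Hsd3b4 (2 starts) and Hsd3b5 hold no copy of these letters. The motif and these genes were chosen after their values were seen, and a match is a description of the sequence only.

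**Figure D3:**
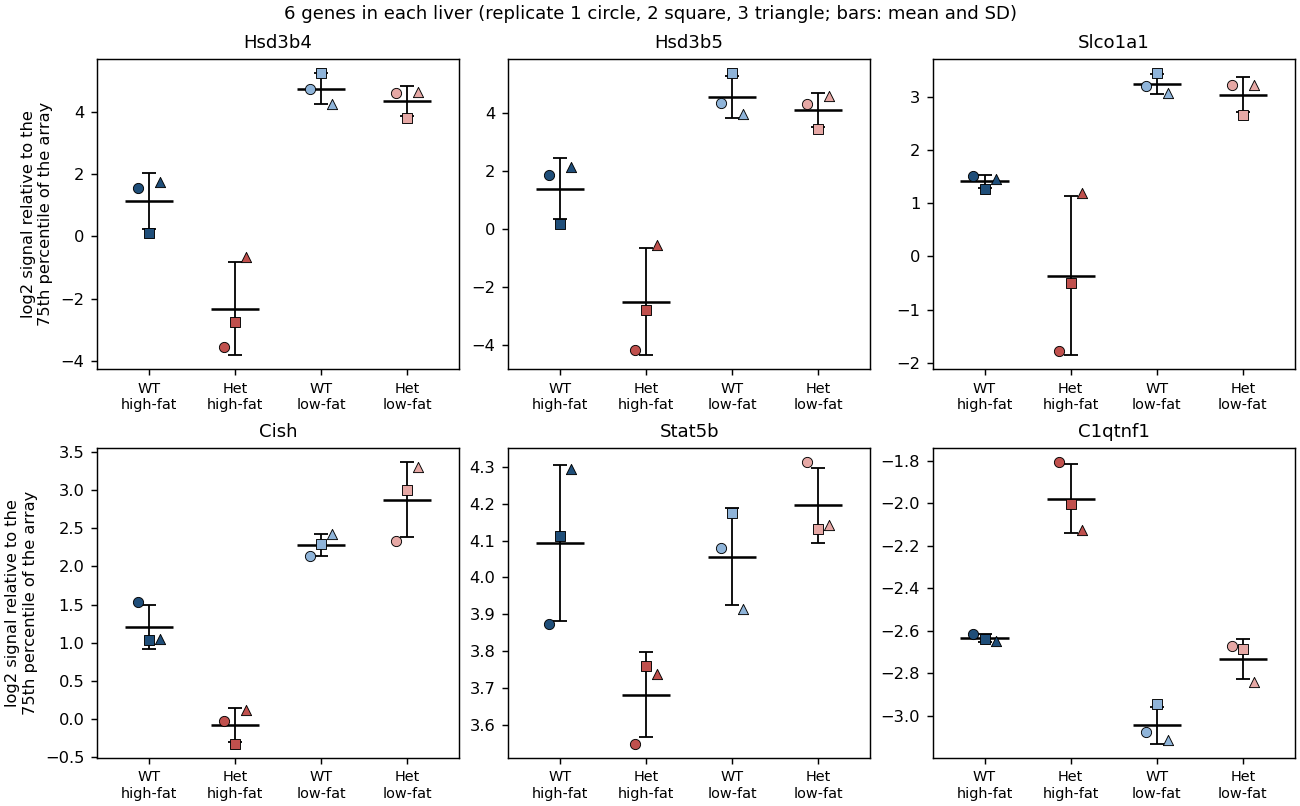
Log2 level of 6 genes in each of the 12 livers by genotype and diet, relative to the 75th percentile of the array. Lines are means and bars 1 SD (n = 3). Hsd3b4 and Hsd3b5 are lower in all 3 Het than in all 3 WT high-fat livers with a wide spread, Slco1a1 is close to the WT level in 1 Het liver (1.20), and the means of Cish and Stat5b are lower in Het on the high-fat and higher on the low-fat diet, and the mean of C1qtnf1 is higher in Het on both diets.

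Hacl1, a peroxisomal lyase of fatty acid alpha-oxidation, stood at 1.43, 0.997 and 1.42 in WT and at -0.23, 0.27 and 0.57 in Het, a difference of -1.08 ± 0.23. Tspan1, a tetraspanin of epithelia, differed by -1.10 ± 0.22 (-0.50 with normexp background correction), the basal transcription gene Taf7 by -0.73 ± 0.14 and the zinc finger gene Zfp773 by -0.71 ± 0.14. Plxna2, a receptor for semaphorins, stood at 1.52, 1.74 and 1.80 in WT and at 0.89, 1.13 and 1.17 in Het (-0.62 ± 0.12). Sco1, which delivers copper to cytochrome c oxidase, differed by -0.56 ± 0.12. The olfactory receptor gene Olfr167 was well above background on 3 of 3 WT and 0 of 3 Het arrays and was at least 1.49-fold lower in Het (adjusted p = 0.359). It passed the filter only through the WT high-fat arrays.

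On the low-fat diet, whose arrays are other animals, limma called 0 of 17043 genes (0%) between the genotypes, and 341 (2%) had an unadjusted p under 0.05. Of the 20 named genes 11 had the same sign there, 6 of the 10 higher and 5 of the 10 lower, and 2 had an unadjusted p under 0.05, C1qtnf1 in the same direction and Cish in the opposite one. The interaction of genotype and diet was called for 0 genes (0%), with 828 (4.86%) at an unadjusted p under 0.05 and a lowest adjusted p of 0.944. Across all genes the differences on the 2 diets correlated with r = 0.09 and rho = 0.02, as a description over 17043 genes that are not independent replicates. No gene was thus shown to differ by genotype on 1 diet and not on the other.

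The gene lists follow, by function. In every list 0 members passed the test, as did 0 of all genes. Counts of members with groups that do not overlap are to be read against 9.15% of all genes upward and 5.79% downward. Medians are given as differences from the median of all genes, and a list that lies near 0 on that scale has no settled sign. For the lists whose members are said here to lie mostly on 1 side, the sign held under quantile, median and normexp scaling.

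**Figure D4:**
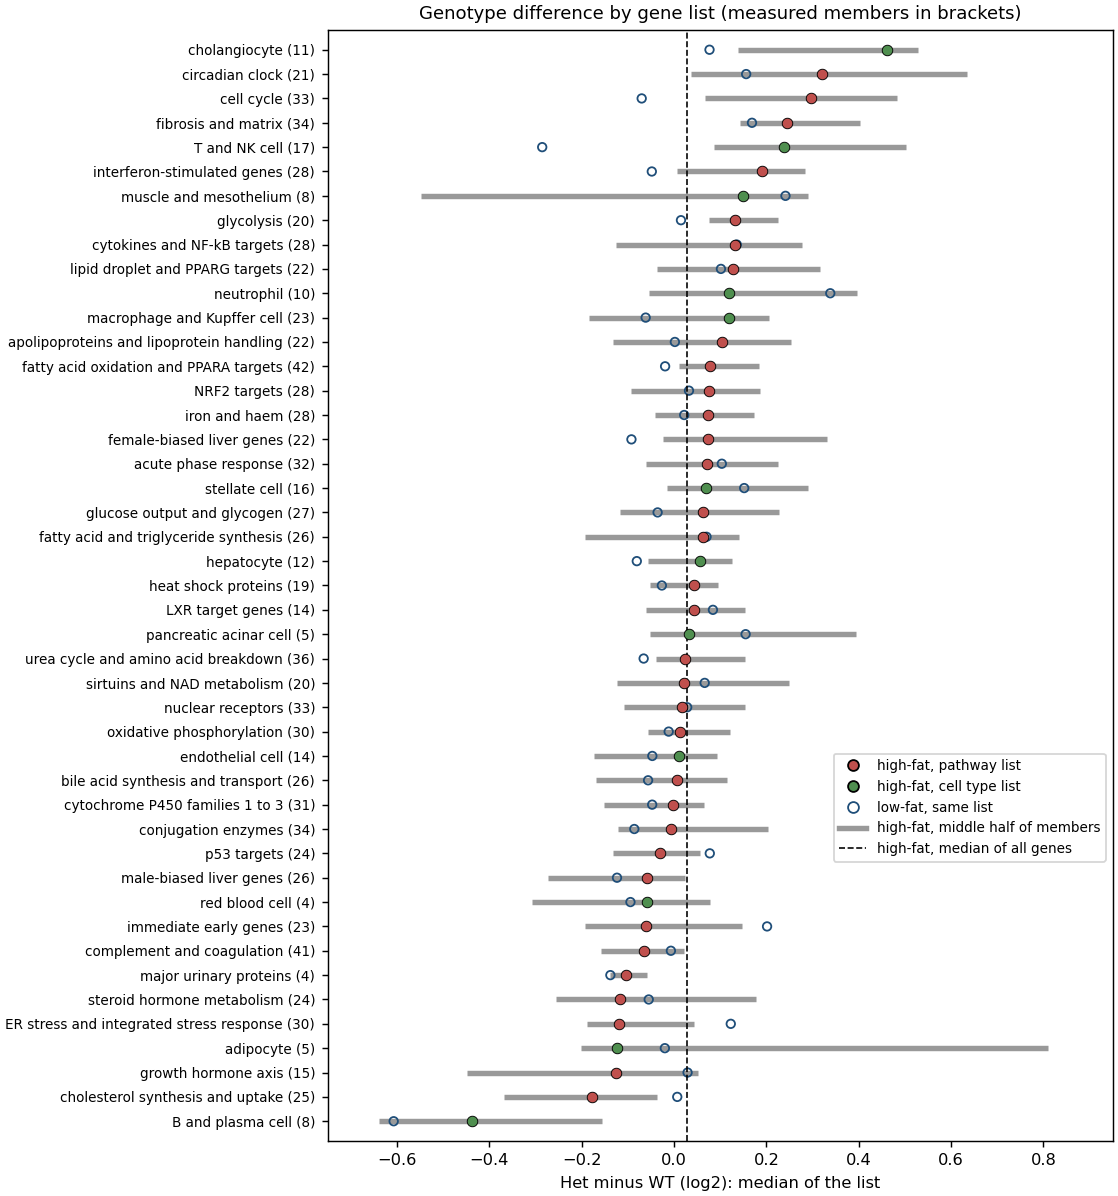
Median Het minus WT difference (log2) of the measured members of 45 gene lists on the high-fat diet (filled points, red for pathways and green for cell types), with the interquartile range of their members (grey bars) and the median on the low-fat diet (open circles). The dashed line is the high-fat median of all genes, 0.03. Cholangiocyte, circadian clock and cell cycle lists lie highest (0.46, 0.32 and 0.30) and the B and plasma cell list lowest (-0.44).

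The sirtuins and NAD genes were the nearest neighbours of Sirt1 by function. Of 20 measured, 6 were higher in all Het arrays and 1, Sirt1, was lower in all. Those higher included Nampt, the rate-limiting enzyme of NAD salvage, at 2.63, 2.67 and 2.58 in WT and 3.10, 2.72 and 2.99 in Het (0.31 ± 0.18). Nmnat1, which makes nuclear NAD, differed by 0.25 ± 0.12, Nmrk1, a kinase for nicotinamide riboside, by 0.38 ± 0.22, and Qprt, of the pathway from tryptophan, by 0.13 ± 0.12. Nnmt, which methylates nicotinamide and so removes it from salvage, differed by 0.50 ± 0.22, and Aox1 by 0.25 ± 0.17. The median of the list lay at -0.01 from that of all genes, with 10 of 20 members above it.

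Male-biased liver genes lay mostly below the median of all genes, while the members of the growth hormone axis were more evenly split. Of 15 genes of the growth hormone axis 6 lay above the median of all genes, and the list median was -0.15 from it. Stat5b, the transcription factor that carries the signal, stood at 3.87, 4.11 and 4.29 in WT and at 3.55, 3.76 and 3.74 in Het (-0.41 ± 0.14), and with Cish it was 1 of 2 members lower in all Het arrays. Stat5b differed by 0.14 ± 0.14 on the low-fat diet. Of 26 male-biased liver genes, those higher in males under pulsatile growth hormone, 6 lay above the median of all genes and 4 were lower in all Het arrays against 0 higher. The median of this list lay at -0.09 from that of all genes, and from -0.22 to -0.03 as each high-fat array was left out. On the low-fat diet its median difference was also below 0, at -0.12, beside -0.003 for all genes. Slco1a1, an organic anion transporter, stood at 1.51, 1.27 and 1.45 in WT and at -1.78, -0.51 and 1.20 in Het (-1.77 ± 0.55). As for Hsd3b5, Het replicate 1 was the lowest array and Het replicate 3 the Het array nearest to WT. The complement gene C8a differed by -0.52 ± 0.17 and Susd4, a regulator of complement, by -0.94 ± 0.33, also with replicate 1 the lowest. The elongase Elovl3 differed by -1.08 ± 0.35, with 1 Het array (4.05) above the lowest WT array (3.98). The male-biased major urinary protein genes differed by -0.15 to -0.01 over 4 measured genes of a near-identical family. Of 22 female-biased genes 12 lay above the median of all genes and 1 was higher in all Het arrays, the flavin monooxygenase Fmo2 (0.89 ± 0.36).

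Steroid, bile acid and drug metabolism showed few members apart. Of 24 steroid hormone genes 3 were lower in all Het arrays, Hsd3b4, Hsd3b5 and Akr1d1, a reductase of both steroids and bile acids, at 0.39, 0.11 and 0.66 in WT and at -0.16, -0.0011 and -0.68 in Het (-0.67 ± 0.20). Of 26 bile acid genes 3 were lower in all Het arrays, Akr1d1, Slco1a1 and Cyp27a1 (-0.33 ± 0.24), which starts the acidic pathway, and 1, the exporter subunit Slc51b, was higher (0.45 ± 0.49). The median of the bile acid list lay at -0.02 from that of all genes. Of 31 P450 genes of families 1 to 3 only Cyp2c54 was lower in all Het arrays, at 2.79, 2.61 and 2.42 in WT and at 1.33, 2.35 and 1.58 in Het (-0.85 ± 0.29). Cyp2c37 (-0.68 ± 0.30) and Cyp2c39 (-0.59 ± 0.26) shared the pattern of a low Het replicate 1 and 3 beside a Het replicate 2 at the WT level, and these close relatives are uncertain as single genes. Among 34 conjugation enzymes the epoxide hydrolase Ephx1 (0.35 ± 0.16) and the glutathione transferase Gstm4 (0.32 ± 0.22) were higher in all Het arrays and the sulfotransferase Sult1d1 lower (-0.19 ± 0.19).

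Cholesterol synthesis was the metabolic list farthest below the median of all genes. Of 25 measured genes 5 lay above that median, and the list median was -0.21 from it, against a low-fat median of 0.01. Cyp51, the lanosterol demethylase, stood at 2.76, 2.52 and 2.82 in WT and at 2.01, 1.64 and 2.43 in Het (-0.67 ± 0.23). Pmvk, a kinase of the mevalonate pathway, differed by -0.41 ± 0.18, Fdps, which makes farnesyl diphosphate, by -0.38 ± 0.17 and Sc5d, a late desaturase, by -0.22 ± 0.13. These 4 of 25 genes were lower in all Het arrays and 0 higher. Het replicate 2 was the lowest Het array for Cyp51 (1.64), Pmvk (4.88) and Fdps (5.85). The list median was -0.38 without Het replicate 3 and -0.12 without Het replicate 2. Among 14 LXR targets, which hold the regulators of sterol export and lipogenesis, the median lay at 0.01 from that of all genes, and Srebf1 differed by 0.36 ± 0.27.

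Fatty acid synthesis and oxidation lay at 0.03 and 0.05 from the median of all genes. With slide as a block, which sets Het against WT replicate 3 alone, they lay at -0.31 and -0.16 from it. Of 26 synthesis genes the acetyl-CoA synthetase Acss2 was lower in all Het arrays (-0.53 ± 0.20) and Elovl1, an elongase of very long chains, higher in all (0.32 ± 0.26). Mlxipl, which encodes the glucose-sensing factor ChREBP, differed by -0.41 ± 0.21. Of 42 genes of fatty acid oxidation and PPARA targets 31 lay above the median of all genes, by a list median of 0.05, which was -0.07 without WT replicate 2. Pex11a, a peroxisome proliferation gene and PPARA target, stood at 5.80, 5.49 and 5.77 in WT and at 6.18, 6.17 and 6.33 in Het (0.54 ± 0.16). On the low-fat diet Pex11a was lower in Het, by -0.35 ± 0.16. Ucp2, a mitochondrial carrier, differed by 0.72 ± 0.28 and Cpt1a, which admits fatty acids to mitochondria, by 0.32 ± 0.16, both higher in all Het arrays. The oxidation gene Decr1 read -7.69 on WT replicate 2 with its brighter probe, against 0.10 to 0.72 on the other high-fat arrays, while its other probe differed by -0.13 ± 0.15. Its fitted difference of 2.58 on the brighter probe therefore rests on 1 spot. Of 22 lipid droplet genes Mogat1, an acyltransferase, was higher in all Het arrays (0.65 ± 0.48), and Cidec stood at 4.11, 4.15 and 4.45 in WT and 5.62, 4.09 and 5.43 in Het, with Het replicate 2 at the WT level.

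Genes of glucose handling were split. Of 27 genes of glucose output and glycogen, Insr, the insulin receptor, stood at 1.31, 1.54 and 1.36 in WT and at 0.89, 1.02 and 1.07 in Het (-0.41 ± 0.14). Ppp1r3c, which targets a phosphatase to glycogen, differed by -1.01 ± 0.36 and Hnf4a, a master regulator of hepatocyte genes, by -0.26 ± 0.17, and these 3 were lower in all Het arrays. The mean of all Hnf4a probes differed by 0.05, the other way. The pyruvate carboxylase Pcx was higher in all (0.18 ± 0.13). Pck1, the enzyme that commits oxaloacetate to glucose, differed by 0.41 ± 0.20 and Sds, the serine dehydratase, by 1.10 ± 0.47, with groups that overlapped. Of 20 glycolysis genes 18 lay above the median of all genes, by a list median of 0.10, which ran from 0.06 to 0.17 as each high-fat array was left out. Eno3 (0.44 ± 0.13) and Pkm (0.35 ± 0.16), forms of enolase and pyruvate kinase also found outside hepatocytes, were the 2 higher in all Het arrays. The 30 oxidative phosphorylation genes lay at -0.01 from the median of all genes, with 0 members whose groups did not overlap.

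The circadian clock list had the highest median of the pathways, and it rested on 1 WT array. Usp2, a clock-controlled deubiquitinase, stood at 0.35, 0.65 and -2.30 in WT and at 1.14, 1.07 and 0.84 in Het. Per1, Per2, Per3, Dbp and Ciart, which peak together in the clock, were also lowest in WT replicate 3, at -0.71, -1.25, -4.95, 4.21 and -4.46, and Arntl, which peaks in the opposite phase, was highest there (0.61, against -2.26 to -0.80 on the other high-fat arrays). The list median of 0.29 over that of all genes was 0.05 without WT replicate 3 and 0.69 against that array alone. The haem synthesis gene Alas1, itself under clock control, shared the low value (4.56, against 5.88 to 6.62). The labels do not give the hour at which each liver was taken, and its part in these differences was not tested.

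**Figure D5:**
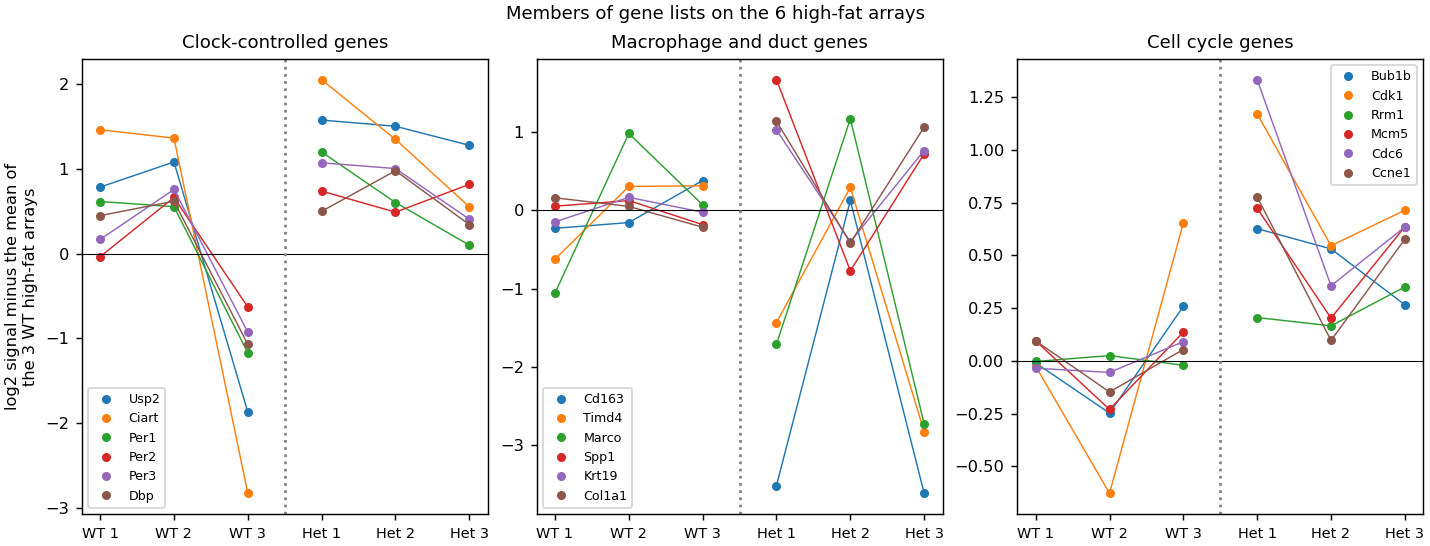
Log2 level of members of gene lists on the 6 high-fat arrays, minus the mean of the 3 WT arrays of that gene. The left panel holds clock-controlled genes, the middle one macrophage, duct and collagen genes and the right one cell cycle genes, each colour being a gene and thin lines joining the arrays of a group. Clock genes are lowest in WT replicate 3, and Het replicate 2 parts from Het replicates 1 and 3 in the middle panel. The 6 cell cycle genes were picked after their values were seen, and 5 lie above all WT arrays in all 3 Het arrays, Cdk1 in 2. In the whole cell cycle list 7 of 33 members were higher in all Het arrays and 1 was lower, beside 9.15% and 5.79% of all genes.

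Inflammatory genes were mixed. Of 32 acute phase genes 4 were higher in all Het arrays and 3 lower. Orm2, an orosomucoid, stood at 4.73, 4.57 and 4.68 in WT and at 5.01, 4.94 and 4.97 in Het (0.31 ± 0.13), and Orm1 and the copper carrier Cp differed by 0.21 ± 0.13 and 0.21 ± 0.11. Mt1, a metallothionein, differed by 1.04 ± 0.46. The fibrinogen gene Fga (-0.27 ± 0.13), Crp (-0.32 ± 0.19) and Itih3 (-0.16 ± 0.11) were lower in all Het arrays. Hamp, which encodes the iron hormone hepcidin, stood at 4.86, 1.66 and 2.56 in WT and at 4.05, 5.05 and 4.91 in Het, so that 1 WT array lay within the Het range (1.65 ± 0.64). Of 41 complement and coagulation genes 10 lay above the median of all genes, by a list median of -0.09 that ran from -0.15 without Het replicate 2 to -0.05 without Het replicate 3, and 3 were lower in all Het arrays, C1ra (-0.38 ± 0.13), C8a and the kininogen Kng1 (-0.27 ± 0.19).

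Of 28 cytokines and NF-kB targets 3 were higher in all Het arrays and 2 lower. Nfkb1 stood at 0.75, 0.98 and 0.84 in WT and at 0.70, 0.38 and 0.40 in Het (-0.36 ± 0.12), while its partner Nfkb2 was higher (0.30 ± 0.13, and 0.14 with normexp background correction). The sign of Nfkb1 turned with the mean of all its probes, to 0.26, and with array trends removed, to 0.01. Tnf was higher in all Het arrays (0.54 ± 0.32). Il12b was well above background on 0 of 3 WT and 3 of 3 Het arrays, at least 1.46-fold higher, and Il6 on 2 of 3 WT and 0 of 3 Het arrays, at least 1.82-fold lower. WT replicate 3 of Il6, at -6.05, was close to the Het arrays at -6.42 to -6.26. The 28 interferon-stimulated genes lay 0.16 above the median of all genes, or 0.10 above without WT replicate 3, with Mx1 at 0.96 ± 0.42 and overlapping groups, and with Iigp1, an immunity-related GTPase, the 1 gene lower in all Het arrays (-0.29 ± 0.13).

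Matrix and proliferation genes lay mostly above the median of all genes. Of 34 fibrosis and matrix genes 29 lay above the median of all genes, by a list median of 0.22. Tgfb1, the cytokine that drives collagen production, stood at -2.24, -2.22 and -2.48 in WT and at -1.94, -1.87 and -1.81 in Het (0.44 ± 0.14), and Loxl2, a cross-linking enzyme of collagen, differed by 0.59 ± 0.31. These 2 of 34 members were higher in all Het arrays and 0 were lower, and 1, Tgfb1, had an unadjusted p under 0.05. Col1a1 stood at 1.86, 1.75 and 1.48 in WT and at 2.84, 1.28 and 2.76 in Het, with Het replicate 2 below every WT array. Without that array the list lay 0.48 above the median of all genes, and without Het replicate 1, Het replicate 3 or WT replicate 3 it lay 0.11, 0.13 and 0.11 above.

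Of 33 cell cycle genes 27 lay above the median of all genes, by a list median of 0.27, and 7 were higher in all Het arrays against 1 lower. Bub1b, a kinase of the spindle checkpoint, stood at -4.04, -4.28 and -3.77 in WT and at -3.40, -3.50 and -3.76 in Het (0.47 ± 0.17). Rrm1, a subunit of ribonucleotide reductase, differed by 0.24 ± 0.10, the replication genes Mcm5, Mcm4 and Cdc6 by 0.52 ± 0.26, 0.30 ± 0.20 and 0.77 ± 0.45, and the cyclins Ccne1 and Ccnd1 by 0.48 ± 0.28 and 0.52 ± 0.35. Cenpa, a histone variant of centromeres, was lower in all Het arrays (-0.35 ± 0.18). Cdk1, the mitotic kinase, stood at -2.83, -3.43 and -2.15 in WT and at -1.64, -2.26 and -2.09 in Het (0.81 ± 0.30). On the low-fat diet the list median was -0.07, and Bub1b was lower in all Het arrays (-0.44 ± 0.17). With slide as a block, which sets Het against WT replicate 3 alone, the list lay at -0.03 from the median of all genes. It lay 0.15 above without Het replicate 1 and 0.15 above without WT replicate 2.

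Among stress and signalling lists, the 30 genes of ER stress and the integrated stress response lay at -0.15 from the median of all genes, or -0.09 without Het replicate 1 and -0.10 without WT replicate 2, with Asns at -0.81 ± 0.41 and overlapping groups. The heat shock genes Hspa8 (-0.39 ± 0.16) and Dnaja1 (-0.20 ± 0.13) were lower in all Het arrays, and the small heat shock genes Hspb1 (0.75 ± 0.50) and Hspb8 (0.29 ± 0.20) higher. The NRF2 target Cbr3, a carbonyl reductase, differed by 0.94 ± 0.29 with groups that overlapped. Of 23 immediate early genes Nr4a2 was higher in all Het arrays (0.58 ± 0.21). Fosl1 was well above background on 0 of 3 WT and 3 of 3 Het arrays and was at least 1.52-fold higher. In the urea cycle and amino acid list Glul, the glutamine synthetase of pericentral hepatocytes, was higher in all Het arrays (0.30 ± 0.12). The 24 p53 targets, p53 being a substrate of SIRT1, lay at -0.06 from the median of all genes.

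Markers of the cell types that a liver sample can hold were examined beside these lists. The tissue label was borne by 12 measured hepatocyte markers, whose mean log2 level lay between 6.48 and 6.67 on the WT and between 6.42 and 6.76 on the Het high-fat arrays. Every marker that passed the filter was above background on at least 1 high-fat array. Markers without a value here included the adipocyte genes Adipoq, Lep and Plin1, the muscle gene Ckm, the B cell gene Pax5 and the neutrophil gene Ly6g. They either did not pass the filter or had no probe under that symbol, and these cases were not told apart. Of 23 macrophage and Kupffer cell markers 15 lay above the median of all genes. Cd163, a scavenger receptor of resident macrophages, stood at 1.11, 1.18 and 1.72 in WT and at -2.18, 1.46 and -2.28 in Het. It was among the 2 genes called without Het replicate 2, the other being Fabp3. Timd4 stood at -2.46, -1.53 and -1.52 in WT and at -3.27, -1.54 and -4.67 in Het. Marco stood at 1.65, 3.70 and 2.78 in WT and at 1.001, 3.89 and -0.02 in Het. Both, also of resident Kupffer cells, shared the pattern of a Het replicate 2 at the WT level. Their groups overlapped, as did those of Clec4f (-0.17 ± 0.26) and Cd5l (0.09 ± 0.25), other markers of these cells. Spic was higher in all Het arrays (0.20 ± 0.21), the 1 of 23 markers to be so, and 0 were lower in all. The mean level of the macrophage list ran from 1.25 to 1.45 in WT and from 0.90 to 1.43 in Het.

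Of 11 cholangiocyte markers 9 lay above the median of all genes, by a list median of 0.43. Cftr, the chloride channel of bile ducts, was well above background on 2 of 3 WT arrays and stood at -5.25, -5.73 and -4.90 in WT and at -3.67, -4.12 and -4.71 in Het (1.12 ± 0.39, and 0.50 with normexp background correction). Epcam, Krt19 and Spp1 were highest in Het replicate 1, at -1.33, -1.51 and 6.06, and lowest in Het replicate 2, at -3.45, -2.94 and 3.61. The list lay 0.89 above the median of all genes without Het replicate 2 and -0.03 from it without Het replicate 1. Its mean level ran from -1.66 to -1.41 in WT and from -1.87 to -0.45 in Het, so that the Het range took in that of WT. These markers moved with the matrix genes and with Cidec across the Het arrays, and their part in those differences was not tested.

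Of 8 B and plasma cell markers 2 lay above the median of all genes, by a list median of -0.47, and 3 were lower in all Het arrays. Jchain, which joins secreted antibodies, stood at -0.30, 1.18 and -0.21 in WT and at -1.50, -0.50 and -1.46 in Het (-1.38 ± 0.63), and Ighm and Mzb1 differed by -0.62 ± 0.34 and -0.70 ± 0.53. Without Het replicate 1 the list lay at -0.30 from the median of all genes. The list's median difference was -0.61 under low-fat feeding and -0.44 under high-fat feeding, neither set against the median of all genes. Its mean level on the low-fat arrays ran from -2.33 to -0.62 in WT, with WT replicate 1 the highest. In Het that level ran from -2.47 to -2.07, so that the groups overlapped. Of 17 T and NK cell markers 13 lay above the median of all genes (list median 0.21). The list lay 0.10 above that median without WT replicate 3, 0.11 above without Het replicate 1, 0.34 above without WT replicate 1 and 0.46 above with slide as a block, and its low-fat median was -0.29. In all Het arrays 2 markers were higher and 1 lower. Ptprcap, a partner of the phosphatase CD45, was the lower one (-0.34 ± 0.15), and Cd3g, of the T cell receptor complex, was higher (0.49 ± 0.33). Nkg7, a granule protein of killer cells, was higher in all Het arrays by 0.57 ± 0.25 and on the low-fat diet lower in all by -0.56. The 14 endothelial markers were split, with 7 higher and 7 lower in Het and a list median of -0.02 from that of all genes. Vwf, the clotting factor of vessel walls, differed by 0.51 ± 0.25 and Eng by 0.32 ± 0.20, with groups that overlapped, while Cdh5 (-0.46 ± 0.17), Oit3 (-0.39 ± 0.16) and Tek (-0.26 ± 0.15) were lower in all Het arrays and 0 were higher. The stellate cell gene Dcn was higher in all Het arrays (0.32 ± 0.14), the 1 of 16 markers of that list to be so. The 10 neutrophil markers spread most between arrays, with a mean level from -4.67 to -2.20 in WT and from -3.52 to -3.24 in Het, beside the difference of Cxcr2, and their list median of 0.09 over that of all genes was -0.44 without WT replicate 3 and 1.01 without WT replicate 2. Lists of red blood cells, adipocytes and pancreatic acinar cells had 4 or 5 measured markers each and medians from -0.15 to 0.00 from that of all genes. Of 8 markers of muscle and mesothelium the mesothelial genes Msln (-0.79 ± 0.45) and Upk3b (-0.87 ± 0.37) were lower in all Het arrays and the keratin Krt8 higher (0.36 ± 0.17).

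The count of called genes depended on 1 array. Without WT replicate 3, limma called 48 genes at an adjusted p under 0.05, 23 higher and 25 lower in Het. These genes were chosen by WT replicates 1 and 2 alone and are not called once WT replicate 3 is included, so that a WT replicate 3 nearer to Het is part of their choice and is given as a description. The histone gene H1f1, for example, was at -0.02 and -0.40 in WT replicates 1 and 2 and at -4.07 in WT replicate 3, and Epha3, an ephrin receptor, at -0.21, -0.16 and -1.90. On the low-fat arrays, which lay on other slides, H1f1 was at -3.94, -3.43 and -4.01 in WT and at -4.07, -3.76 and -3.45 in Het, near WT replicate 3. Epha3 was there at 0.50, -0.06 and -0.11 in WT and at 0.26, 0.34 and -0.02 in Het, nearer to WT replicates 1 and 2. Slide and replicate cannot be told apart for the genes called, since 1 WT array shares the slide of Het. Of the 20 named genes 3 were among the 48, Tekt1, Cxcr2 and Ppp1r1a.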

How the data were processed

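Liver RNA of 12 mice was measured on 12 arrays with 1 colour, per the labels. The intensity of each spot was read out by Agilent Feature Extraction, version 9.5 per the submitters' processing notes, and the deposited processed signal is background-subtracted and detrended within the array, per the file headers. The deposited flags, which hold other yes or no codes, marked outliers and spots above background. The deposited value table equals the scanner values. From these intensities, log2 levels minus the 75th percentile of each array were computed. A probe was kept where every array of some group flagged it as above background (25297 of 41174), and the brightest probe stood for a gene. Probes were named through RefSeq (GRCm38.p6) by accession (22951), current symbol (6659) or older symbol (3109), and otherwise by the array design (8455). limma 3.58.1 in R 4.3.3 fitted 4 groups on 12 arrays, with Benjamini-Hochberg adjustment over 17043 genes at 0.05, after being tested on simulated data. Whether animals shared a litter or cage is not given, so p-values measure the spread between these animals.

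Named genes are the 10 of lowest p in each direction with a current symbol and groups that do not overlap, and up to 4 of lowest p per list. Further members were chosen after their values were seen. One gene of these lists is not reported here. The members and lists were chosen with earlier results of these data known.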

Additional observations from a re-analysis of the deposited data

Results flagged for a closer look

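For 7 genes the 3 Het arrays lay on 1 side of the 3 WT arrays under the high-fat diet and on the other side under the low-fat diet. The interaction of genotype and diet was tested for each in limma, and none passed after Benjamini-Hochberg adjustment over 17043 genes. They come from the genes named above, whose high-fat values had a part in that choice. With high-fat feeding alone, groups that do not overlap were seen for 14.9% of all genes. How many of all genes turn sides between the diets was not counted, so the 7 cannot be set against an expected number. Akap6 differed by 0.75 with high-fat feeding and by -0.26 with low-fat feeding. In the same order, Plxna2 differed by -0.62 and 0.22, Pex11a by 0.54 and -0.35 and the cell cycle gene Bub1b by 0.47 and -0.44. For these 4 genes the adjusted p of the interaction in limma was 0.944. The killer cell gene Nkg7 differed by 0.57 and -0.56 and the mesothelial gene Upk3b by -0.87 and 0.83, each with an adjusted p of 0.956 in limma. Rrm1, a subunit of ribonucleotide reductase, differed by 0.24 and -0.08, and its unadjusted limma p of 0.047 was the highest of the 7.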

How the results depend on the processing

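The count of genes called between genotypes on the high-fat diet was 0 under the other settings run, but 2 with quantile normalization (Olfr167 and AK082839, both lower), and from 0 to 48 as each array was left out: 48 without WT_HF replicate 3, 2 without Het_HF replicate 2 and 1 without Het_LF replicate 2. The interaction count ran from 0 to 3, with 3 without WT_HF replicate 3 and 1 without Het_LF replicate 1. Genes at an unadjusted p under 0.05 fell from 1475 to 857 without WT_HF replicate 2 and to 875 with slide as a fixed block, which sets Het against WT_HF replicate 3 alone. The labels' replicate numbers were not used as pairs in the main fit. The correlations of same-numbered deviations were 0.12, -0.10 and 0.02, and those of differently numbered ones ran from -0.23 to 0.16. With 3 arrays per group these values cannot decide whether the animals were paired. With the replicate block 0 genes passed for genotype (lowest adjusted p = 0.512) and 0 for the interaction. Both Sirt1 probes stayed lower in Het under all 20 alternatives, from -0.56 to -0.39 and from -0.80 to -0.54, with no change of call. Some of these settings could not move the differences, as they keep the high-fat group means. They are the low-fat arrays left out, the high-fat arrays alone and the replicate block. Among single genes, 3 values turned sign: Nfkb1 to 0.26 and Hnf4a to 0.048 with the mean of all probes, and Nfkb1 to 0.014 with GC and brightness trends removed. The cause was not tested. Of the list medians 31 moved beyond the replicate spread and 1049 did not. The 1049 include the settings that keep the high-fat group means, where no move could be expected, so they are no measure of stability. Signal near the background limits the dim genes. Bounds were given where a group had no array well above background, and the differences of other dim genes shrank with normexp, as given beside them.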
